A study of Mus musculus with 5 samples.

Results

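Runx3 is a transcription factor of the RUNX family that acts in cytotoxic lymphocytes, and RUNX proteins bind a short G-rich DNA motif together with their partner protein Cbfb. H3K4me1, monomethylation of lysine K4 of histone H3, is a chromatin mark found at enhancers, both active and poised, and many far-lying binding sites of lineage transcription factors in T cells carry it. The regions described here met no called region of this mark. In CD8-TC (CD8+ T cells) activated and kept in IL-2, they were the regions bound by Runx3 whose centre lay 50 kb or more from the nearest transcription start site (TSS) of any annotated transcript and which shared 0 bp with any H3K4me1-marked region. By this rule, which used position and overlap only, there were 302 such regions of 9135 Runx3-bound regions, or 3.31% (95% Wilson interval 2.96% to 3.69%), and of the 1002 Runx3-bound regions that far from a TSS they were 30.1% (27.4% to 33.1%). They are called unmarked far regions below.

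The cells were splenic CD8-TC from ICR mice, all with the same treatment: activation through the T cell receptor for 2 days, then culture for 4 days in 100 u/ml IL-2. ChIP-seq, the sequencing of DNA precipitated with an antibody, had been done with anti-Runx3 antibody (2 libraries), with non-immune serum as control (NIS, 2 libraries) and with anti-H3K4me1 antibody (1 library in the labels). Peaks were called once per antibody on joined reads and carry a position but no height, so the values below have no replicate error and the read depth behind each region is unknown. Intervals cover the counting error among regions only. Marked means at least 1 bp shared with one of the 18992 H3K4me1-marked regions, and unmarked means only that no such region was called there. Unmarked far regions were compared with the 700 H3K4me1-marked regions at the same distance (marked far regions) and with the 1125 unmarked regions 5 to 50 kb from a TSS. Differences between classes are given in percentage points with a Newcombe interval at 99.7%, the level adjusted for the 16 differences computed, and a difference was called where that interval excluded 0.

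The regions with the most RUNX motifs in the central 200 bp and 3 regions near known T cell genes are shown first. They give the sequence found at Runx3-bound sites where the mark was not called. Each is the central 160 bp on mm9, 5' to 3', with each RUNX motif in capitals. The motif was searched on both strands in its 4 variants, TGTGGT or TGTGGC and likewise TGCGGT or TGCGGC, so that a motif on the other strand reads ACCACA or GCCACA. The first 4 lie in an intron of the gene model Gm15710, between Plk2 and Actbl2, upstream of Jarid2 and upstream of Xylt1. The last 3 lie in an intron of Ikzf2, upstream of Lef1 and upstream of Bcl6.
chr5:92150490-92150649, plus strand: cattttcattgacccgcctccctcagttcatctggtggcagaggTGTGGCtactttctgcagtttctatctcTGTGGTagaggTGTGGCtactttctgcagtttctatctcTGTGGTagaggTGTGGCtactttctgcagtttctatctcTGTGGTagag
chr13:111833976-111834135, plus strand: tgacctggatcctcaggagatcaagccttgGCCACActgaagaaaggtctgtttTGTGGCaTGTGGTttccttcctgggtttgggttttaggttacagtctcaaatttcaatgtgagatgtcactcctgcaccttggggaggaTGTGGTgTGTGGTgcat
chr13:44683311-44683470, plus strand: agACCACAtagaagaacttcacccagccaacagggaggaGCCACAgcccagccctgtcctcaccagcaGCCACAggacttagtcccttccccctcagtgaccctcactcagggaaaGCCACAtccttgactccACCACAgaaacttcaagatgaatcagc
chr7:124271343-124271502, plus strand: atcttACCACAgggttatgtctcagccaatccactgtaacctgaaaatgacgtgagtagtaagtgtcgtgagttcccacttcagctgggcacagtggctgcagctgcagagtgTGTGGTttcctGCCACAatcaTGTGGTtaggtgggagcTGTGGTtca
chr1:69590926-69591085, plus strand: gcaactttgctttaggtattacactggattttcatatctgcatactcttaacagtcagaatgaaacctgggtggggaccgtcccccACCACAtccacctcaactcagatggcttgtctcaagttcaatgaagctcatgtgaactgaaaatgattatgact
chr3:130640053-130640212, plus strand: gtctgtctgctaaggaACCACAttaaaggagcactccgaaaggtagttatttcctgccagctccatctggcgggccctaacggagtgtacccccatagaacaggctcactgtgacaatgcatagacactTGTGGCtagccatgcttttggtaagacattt
chr16:24154143-24154302, plus strand: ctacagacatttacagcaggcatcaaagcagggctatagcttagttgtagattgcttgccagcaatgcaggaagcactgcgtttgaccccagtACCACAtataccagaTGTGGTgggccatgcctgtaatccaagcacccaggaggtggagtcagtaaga

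The chr5 region held 7 motifs in its central 200 bp, the highest number, of which 6 are in the printed 160 bp, in a tandem repeat whose unit carried 1 TGTGGC and 1 TGTGGT. Over its whole length it held 12, and 69.0% of the 32-base words of that region occurred once in the genome. The region between Plk2 and Actbl2 held 5 motifs and had pairs 1 bp apart on the same strand. The region upstream of Jarid2, a gene for a subunit of the Polycomb PRC2 complex, also held 5 motifs and lay 1.92 kb from an H3K4me1-marked region. The region between Plk2 and Actbl2 lay 412 kb from the mark and the region near Xylt1 265 kb. Among these printed regions, those dense in RUNX motifs thus lay both near the mark and far from it.

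Among the 302 regions, 54 had no RUNX motif in the central 200 bp, 123 had 1, 84 had 2, and 41.4% (36.0% to 47.0%) had at least 2. In all, 248 regions had a motif there, 82.1% (77.4% to 86.0%). In windows of the same length 1000 bp to either side, 29.0% of 604 windows held one, so that the centre held it 2.83 times as often. Over whole regions the share was 91.4%, and 26 regions held none. The nearest motif lay a median of 27.5 bp from the centre, and in 47.2% of the 248 it lay within 25 bp. Most of the 302 regions thus held a motif in the central 200 bp, a large part of a region whose median width was 452 bp.

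**Figure D1:**
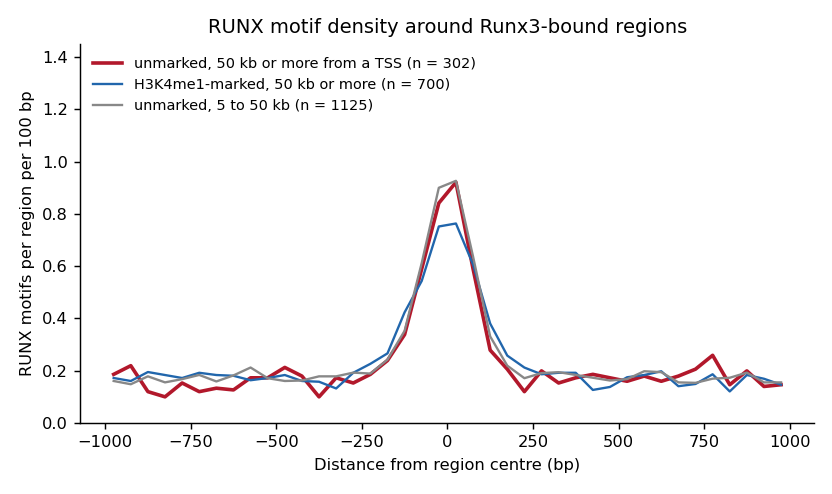
Number of RUNX motifs per region per 100 bp (y axis, 50 bp bins) against distance from the region's centre in bp (x axis) for unmarked far regions (red), marked far regions (blue) and unmarked regions 5 to 50 kb from a TSS (grey). All 3 lines peak at the centre, at 0.921 motifs for unmarked far regions and 0.763 for marked far regions, and lie between 0.0993 and 0.258 at 500 bp or more from it.

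The share with a RUNX motif was 81.7% (78.7% to 84.4%) in marked far regions, 81.5% in unmarked regions 5 to 50 kb from a TSS and 78.7% in all Runx3-bound regions. The difference from marked far regions was 0.405 percentage points (-7.96 to 7.70) and from unmarked regions 5 to 50 kb from a TSS 0.608 (-7.43 to 7.28). Neither was called, and a difference of up to about 8 points in either direction lies within these intervals. Of the variants, TGTGGT was in 66.6% of unmarked far regions against 63.4% of marked ones and 54.3% of all Runx3-bound regions, and TGCGGT in 8.94% against 7.0% and 13.7%. TGTGGC was in 29.1% of unmarked far regions and TGCGGC in 3.64%. The differences for TGTGGT (3.13 points, -6.73 to 12.4) and TGCGGT (1.94 points, -3.14 to 8.45) were not called.

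A pair of RUNX motifs with at most 50 bp between them (a RUNX-RUNX module) was in 93 unmarked far regions, 30.8% (25.9% to 36.2%), against 2.65% of their flanking windows, 24.9% of marked far regions and 25.7% of all Runx3-bound regions. In unmarked regions 5 to 50 kb from a TSS the share was 32.6%, and in marked ones 28.0%. The difference from marked far regions, 5.94 points (-2.91 to 15.4), was not called. ETS factors such as Ets1 bind next to RUNX proteins in T cells, and their core motif was searched as AGGAAA or AGGAAG and likewise CGGAAA or CGGAAG. It was in 60.9% (55.3% to 66.3%) of unmarked far regions, 44.5% of their flanks, 69.0% (65.5% to 72.3%) of marked far regions and 66.1% of all. The ETS share was 59.2% in unmarked regions 5 to 50 kb from a TSS and 68.4% in marked ones. The difference from marked far regions was -8.07 points (-17.9 to 1.46), not called, although its unadjusted 95% interval, -14.6 to -1.68, excluded 0. It was called in the whole region (-9.36 points) and among regions narrower than the median (-12.7). It was also called with coding gene starts only (-6.84) and with 1 region per group of neighbours (-13.1). That last setting kept a region only where it came first by position among neighbouring Runx3-bound regions of any class (219 unmarked, 375 marked far). Unmarked far regions were narrower (median 452 bp against 542 bp), so the whole-region search covered less of their sequence. An ETS and a RUNX motif within 50 bp of each other were in 37.4% of unmarked and 45.6% of marked far regions. The share was 37.9% in unmarked regions 5 to 50 kb from a TSS. The difference from marked far regions, -8.15 points (-17.7 to 1.93), was not called either. It was called in the whole region (-12.8) and with 1 region per group of neighbours (-13.0), and it was -1.05 in the central 100 bp.

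The 8-letter words in at least 20 unmarked far regions show the context of the motif. There were 37 such words, each counted on both strands, and 20 held the first 5 letters of a RUNX motif (TGTGG or TGCGG). Words with only its last 5 letters, such as GTGGTTTT, are not in that count. TGTGGTTT was the most frequent of the RUNX words and occurred in 69 regions, 22.8%, against 2.81% of flanking windows and 19.9% of marked far regions. TGTGGTTA was in 11.9% against 0.662% of flanks, and GATGTGGT in 9.27% against 0.331%. GGATGTGG, in which the GGA of an ETS core runs into the RUNX core, was in 24 regions, 7.95%, against 0.828% of flanks, 9.43% of marked far regions and 7.42% of all Runx3-bound regions. These words were picked after their values were seen and were not tested. The junction is printed for 6 of the 24 regions, in capitals in the direction of the word, with 14 bases to either side on mm9. They lie in an intron of Ikzf2, near Atp6v1g3, near Ppp3ca (the calcineurin catalytic subunit), in Pcdh7, in Adarb2 and downstream of Myc.
chr1:69590999-69591034, minus strand: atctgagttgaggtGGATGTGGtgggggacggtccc
chr1:140245252-140245287, minus strand: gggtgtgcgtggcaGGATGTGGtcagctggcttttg
chr3:136274845-136274880, minus strand: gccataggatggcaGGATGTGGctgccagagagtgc
chr5:58248762-58248797, plus strand: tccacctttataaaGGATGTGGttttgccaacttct
chr13:8742221-8742256, minus strand: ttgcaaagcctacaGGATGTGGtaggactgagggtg
chr15:62562207-62562242, plus strand: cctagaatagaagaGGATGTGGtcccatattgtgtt

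The Pcdh7 site was the farthest of all unmarked far regions from the mark, at 3750 kb, and the Ikzf2 site was 54 bp from it. The Adarb2 site was 40.0 kb from it, and the Ppp3ca site 0.779 kb. The same word was thus printed at sites on both ends of the range of distances to the mark.

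CTCF is a zinc-finger protein that binds insulators and the anchors of chromatin loops, and its 12-letter core consensus was searched by name in the central 200 bp. It was in 6 unmarked far regions, 1.99% (0.914% to 4.27%), in 0 of 700 marked far regions, which allows a share of up to 0.429% (taking 3 counts as the limit of a count of 0, against a Wilson limit of 0.546%), and in 0.909% of all Runx3-bound regions. The difference of 1.99 points (0.158 to 6.04) was called but rests on 6 regions. It was not called under 6 alternatives, and was 0 among regions at least 100 kb from a TSS. In the flanks of unmarked far regions 0 of 604 windows held it (at most 0.497% by the same 3 counts), while 2.76% of unmarked regions 5 to 50 kb from a TSS held it. With 1 mismatch allowed the shares were 4.64% in unmarked and 1.57% in marked far regions. The 6 sites are printed with the consensus in capitals in its own direction. They lie upstream of Slco5a1, downstream of the Mreg start, in an intron of Mctp2, upstream of Enpp6, downstream of Btg1 and downstream of the Kcnj15 start.
chr1:13040387-13040426, plus strand: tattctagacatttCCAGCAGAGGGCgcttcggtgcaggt
chr1:72170405-72170444, minus strand: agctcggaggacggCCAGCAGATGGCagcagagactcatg
chr7:79385038-79385077, minus strand: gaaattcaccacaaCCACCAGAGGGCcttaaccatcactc
chr8:48020435-48020474, plus strand: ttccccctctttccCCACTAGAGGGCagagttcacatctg
chr10:96397449-96397488, minus strand: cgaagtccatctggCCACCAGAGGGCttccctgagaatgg
chr16:95563152-95563191, plus strand: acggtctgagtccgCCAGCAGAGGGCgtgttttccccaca

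Of these 6 regions 4 also held a RUNX motif. Their gaps to the mark ran from 4.65 kb (Enpp6) to 546 kb (Mreg). The Btg1 and Kcnj15 sites held 0 RUNX motifs in the whole region, so that in these 2 the consensus stood without the motif of the precipitated factor.

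The AP-1 motif (TGACTCA or TGAGTCA), bound by Fos and Jun proteins after T cell activation, was in 8.61% of unmarked far regions, 2.65% of their flanks, 8.29% of marked far regions and 6.49% of all, and the difference from marked far regions, 0.324 points (-4.84 to 6.87), was not called. The motifs that follow were described without a test. The STAT motif TTCNNNGAA, the site of Stat5 downstream of IL-2, was in 12.6% of centres and 7.28% of flanks. The TCF/LEF motif ATCAAAG was in 6.95% and 3.31%, and the T-box motif GGTGTGA, bound by Tbx21 and Eomes, in 4.64% and 3.31%. The T-box motif was in 8.29% of marked far regions. A GC box, GGGCGG, typical of promoters, was in 5.63% of unmarked far regions, 3.29% of marked far regions and 7.11% of unmarked regions 5 to 50 kb from a TSS. It was in 15.4% of all Runx3-bound regions, which include those close to a TSS. The median GC content of the central 200 bp was 47.0%, against 44.1% in the flanks, 47.75% in marked far regions and 50.5% over all Runx3-bound regions.

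The gap to the nearest H3K4me1-marked region had a median of 36.7 kb, with quartiles at 5.12 and 158 kb and a maximum of 3750 kb. Of the 302 regions, 48 lay under 1 kb from the mark and 47 between 1 and 10 kb, while 114 lay between 10 and 100 kb and 93 beyond. Within 2 kb, 13 regions had the mark on both sides and 44 on 1 side. The classes held the RUNX motif in 83.3%, 78.7%, 82.5% and 82.8% of regions in that order, and their 95% intervals all overlapped. The ETS motif was in 72.9% (59.0% to 83.4%), 55.3% (41.2% to 68.6%), 58.8% (49.6% to 67.4%) and 60.2% (50.1% to 69.6%). No order of the RUNX motif shares with the gap stood out from the width of their intervals. A RUNX-RUNX module was in 18.8% (10.2% to 31.9%), 27.7% (16.9% to 41.8%), 33.3% (25.3% to 42.4%) and 35.5% (26.5% to 45.6%), in the same order. In unmarked regions 5 to 50 kb from a TSS the module shares were 25.8%, 33.5%, 34.0% and 35.5%. The rise of the module share with the gap was not tested, and the intervals of unmarked far regions overlap.

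**Figure D2:**
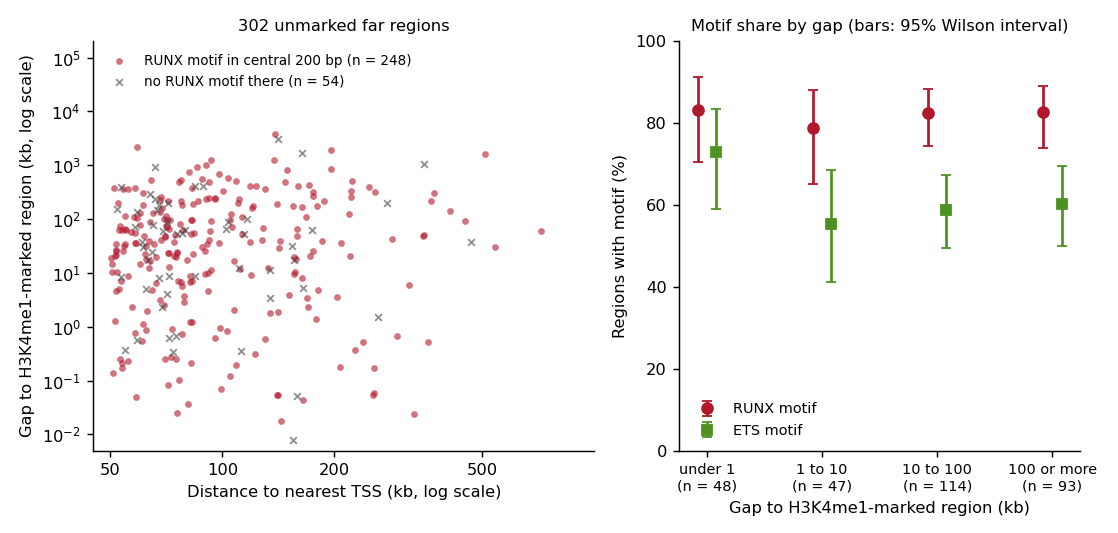
Left, gap to the nearest H3K4me1-marked region in kb (y axis, log scale) against distance to the nearest TSS in kb (x axis, log scale) for each of the 302 unmarked far regions, with dots for the 248 with a RUNX motif in the central 200 bp and crosses for the 54 without. Right, share of regions with a RUNX (circles) or ETS motif (squares) in 4 classes of that gap, with 95% Wilson intervals. The RUNX shares lie between 78.7% and 83.3%.

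The share within 10 kb of the mark was 31.5% (26.5% to 36.9%) of unmarked far regions and 36.9% of unmarked regions 5 to 50 kb from a TSS. That difference of -5.43 points (-13.9 to 3.86) was not called. It was -10.5 and called with coding gene starts only. In 93 unmarked far regions, 30.8% (25.9% to 36.2%), no H3K4me1-marked region had its centre within 100 kb, against 22.1% of the unmarked regions 5 to 50 kb from a TSS. The median number of marked regions within 100 kb was 1 for unmarked far regions and 7 for marked far regions, whose own mark is counted.

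Unmarked far regions had another Runx3-bound region nearby less often than marked far regions. Another Runx3-bound region had its centre within 10 kb of 56 unmarked far regions, 18.5% (14.6% to 23.3%), and of 272 marked far regions, 38.9% (35.3% to 42.5%), and the share was 21.5% of unmarked regions 5 to 50 kb from a TSS and 33.5% over all. The difference from marked far regions, -20.3 points (-28.3 to -11.2), was called. It was -19.3 among regions narrower than the median, and -10.4, still called, when marked meant that the centre lay in a marked region. No other Runx3-bound region lay within 100 kb of 127 unmarked far regions, 42.1%, against 16.6% of marked far regions.

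The unmarked far regions were narrower than the marked ones. Their median width was 452 bp (195 to 1130 bp), against 542 bp in marked far regions, 458 bp in unmarked regions 5 to 50 kb from a TSS and 521 bp over all. A width under 521 bp was found in 69.5% (64.1% to 74.5%) of unmarked and 43.9% (40.2% to 47.6%) of marked far regions, a difference of 25.7 points (15.7 to 34.7) that was called, and in 67.1% of unmarked regions 5 to 50 kb from a TSS. Width bears on the rule, since a wider region meets a marked region more easily. With the centre in a marked region as the definition, the difference was 12.0 points. The widest region, chr14:99848364-99849493 (1130 bp), lay 151 kb downstream of the start of Klf5 and 404 kb from the mark, with 6 RUNX motifs over its length and 0 in the central 200 bp. The next, chr8:35278786-35279902 (1117 bp), lay 61.7 kb downstream of Tmem66 and had 4 motifs. The other 3 of the 5 widest measured 818 to 880 bp and lay in introns of Lef1 and Inpp4b and 135 kb upstream of Mdm1.

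**Figure D3:**
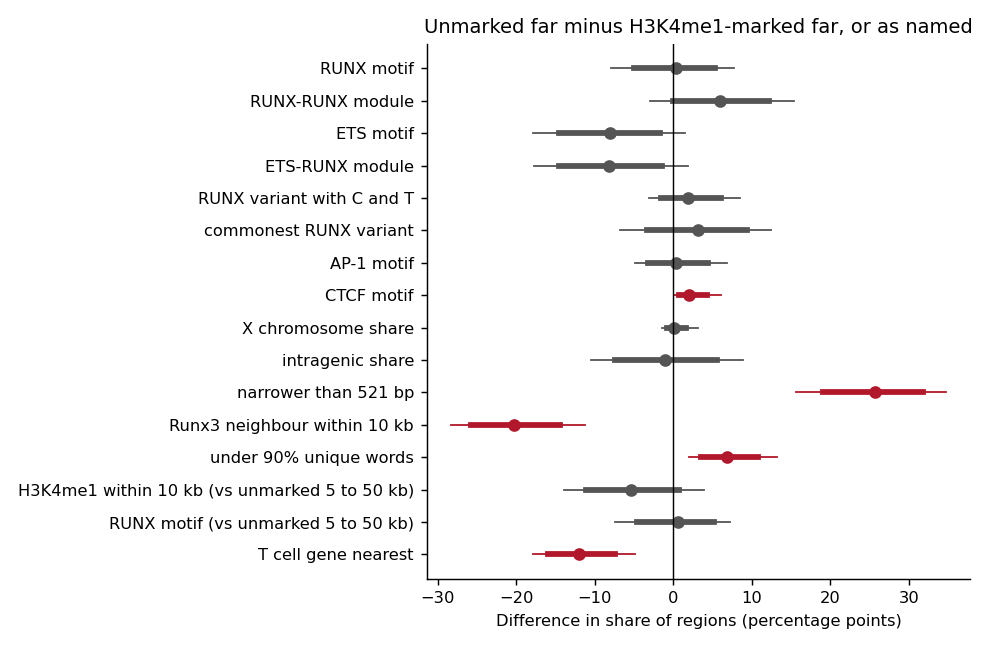
Difference in the share of regions in percentage points (x axis) for the 16 comparisons (y axis), unmarked far minus marked far regions, or minus unmarked regions 5 to 50 kb from a TSS where the row says so. Dots are differences, thick lines 95% and thin lines adjusted Newcombe intervals. The 5 differences in red exclude 0 at the adjusted level, from -20.3 points for a Runx3 neighbour to 25.7 points for narrow regions.

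Reads had been kept only where they aligned to 1 place, so the share of 32-base words of a region that occur once in the genome was set beside these results. It was 100% in 215 unmarked far regions, 71.2%, and under 90% in 30, 9.93% (7.05% to 13.8%), against 3.14% (2.08% to 4.71%) of marked far regions, 157 of 1125 (12.1% to 16.1%) unmarked regions 5 to 50 kb from a TSS and 6.92% of all. The difference from marked far regions, 6.79 points (2.01 to 13.2), was called, but not at 100 kb or more from a TSS (3.90 points). In 4 regions under 50% of words were unique: near Igsf10 (13.2%), near Agr3 (0%), beyond Sel1l (0%) and near BC002059 (49.0%). Restricted to regions with at least 90% unique words, the RUNX difference was 2.19 points, the Runx3 neighbour difference -19.7 and the CTCF difference 2.21. The part of repeated sequence in the lack of a called mark was not tested.

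The median distance was 82.6 kb from an unmarked far region to the nearest TSS of any transcript and 116 kb to the nearest start of a protein-coding gene, and the median interval between the flanking transcript starts was 286 kb. In 193 regions, 63.9%, no gene was annotated, 104 lay in introns and 5 met an exon, and 109 of 302 lay in a gene (36.1%) against 37.1% of marked far regions, a difference of -1.05 points (-10.5 to 8.88) that was not called. Exonic regions met coding sequence of Iqgap1, Zfp608 and Gpatch2, the last with untranslated sequence as well, and the untranslated end of Cd44. The farthest from any TSS was chr12:94121711-94122107, 722 kb away and beyond Sel1l, with 0% unique words. A neighbour in the same interval, chr12:93942176-93942510, lay 543 kb from a TSS and had 100% unique words. The next were chr9:11578996-11579414, 509 kb away near Cntn5 with 4 RUNX motifs and 1647 kb from the mark, and chr15:50193282-50193826, 466 kb away near Trps1.

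The number of far regions varied between chromosomes in both classes. Chromosomes 13 and 10 held 28 unmarked far regions each, 24.1 and 22.1 per 100 Mb, while chromosomes 2 and 11 held 4 each, 2.24 and 3.37 per 100 Mb. Marked far regions were likewise most dense on chromosomes 13 and 10, at 51.6 and 50.5 per 100 Mb. Chromosome 7 was the one with more unmarked than marked far regions, 21 and 20. The X chromosome held 1 unmarked far region, in an intron of Fgf13 and 2196 kb from the mark, and 2 marked ones, shares of 0.331% and 0.286% that differed by 0.0454 points (-1.45 to 3.15), which was not called. The X chromosome held 1.02% of all Runx3-bound regions and 6.34% of the sequence of the chromosomes used.

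**Figure D4:**
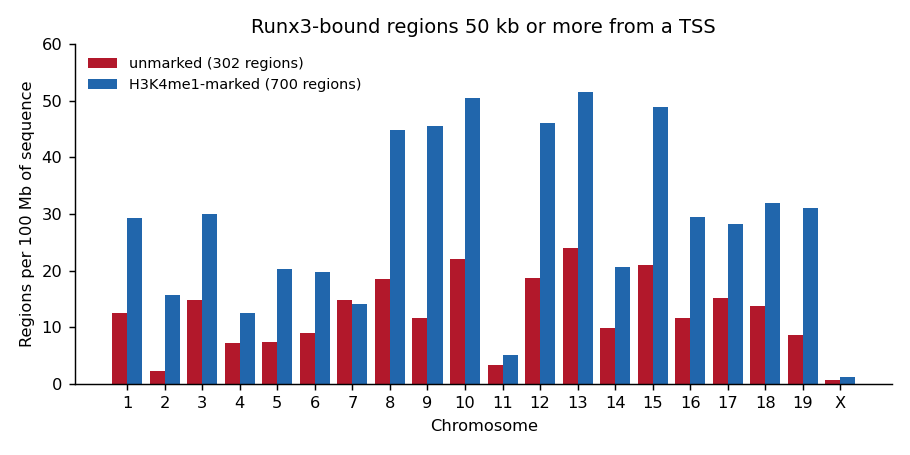
Number of Runx3-bound regions 50 kb or more from a TSS per 100 Mb of sequence (y axis) on each chromosome (x axis), unmarked (red, 302 regions) and H3K4me1-marked (blue, 700 regions). Both classes are most dense on chromosome 13, at 24.1 and 51.6 per 100 Mb, and least dense on X, at 0.617 and 1.23.

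Unmarked far regions had a gene of T cell function as their nearest coding gene less often than marked far regions. A list of 348 annotated genes, 1.57% of protein-coding gene names, was used, in 7 roles. A listed gene was nearest to 23 of 302 unmarked far regions, 7.62% (5.13% to 11.2%), to 137 of 700 marked far regions, 19.6% (16.8% to 22.7%), to 7.29% (5.91% to 8.96%) of unmarked regions 5 to 50 kb from a TSS and to 10.3% of all Runx3-bound regions. The difference from marked far regions, -12.0 points (-17.8 to -4.89), was called. It was -10.1 among regions narrower than the median and -12.9 when either flanking gene counted. It was not called with 1 region per nearest gene (-6.26 points) or at 100 kb or more from a TSS (-9.85). By gap to the mark the share was 7 of 48 under 1 kb, 14.6% (7.25% to 27.2%), 5 of 47 between 1 and 10 kb, 10 of 114 between 10 and 100 kb and, in the farthest class, 1 of 93, 1.08% (0.190% to 5.84%). The 23 regions belonged to 19 genes, of which 12 were also nearest to a marked far region, and 18 of the 23 held a RUNX motif in the central 200 bp.

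Transcription factors made up the largest role, with 10 unmarked far regions near 9 genes and 87 marked far regions near 29. They also made up 93 of the 348 listed genes, 26.7%, against 43.5% of the unmarked and 63.5% of the marked far regions near a listed gene. The RUNX family itself was among them. A region 154 kb upstream of Runx1, 32.3 kb from the mark, held 0 RUNX motifs, and one 79.0 kb upstream of Runx2, in an intron of Supt3h and 2.85 kb from the mark, held 1. Regions lay in Ikzf2, which encodes the Ikaros family factor Helios, 142 kb from its start, and 165 kb upstream of Bcl6, a repressor of effector differentiation, 43 bp from the mark. Tox, a factor of thymic and chronically stimulated CD8-TC, had regions 161 and 509 kb upstream. Lef1, a factor of Wnt signalling kept in naive and memory T cells, had one 173 kb upstream, and Maf one 257 kb downstream of its start and 54 bp from the mark. Satb1, a chromatin organizer of thymocytes, had one 316 kb upstream, and Myc, a driver of growth after activation, one 745 kb downstream with 2 RUNX motifs and 1.92 kb from the mark.

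The other roles held 13 regions. Of the cytokine and receptor genes, Tgfbr2, the type 2 receptor for TGF-beta, had regions 194 and 209 kb upstream, 18 and 51 bp from the mark. Of the T cell receptor signalling genes, Inpp4b, a phosphoinositide phosphatase, had one in an intron 8 bp from the mark, Elmo1 one in an intron 111 kb from it, Pik3r1, a regulatory subunit of PI3 kinase, one 326 kb upstream, and Cblb, a ubiquitin ligase that restrains activation, one 341 kb upstream. Of the homing and adhesion genes, Cd44, a hyaluronan receptor of activated T cells, held one in its last exon and 34.9 kb from the mark, and Ptger4, a prostaglandin E receptor, had regions 318 and 451 kb upstream. Of the cell cycle genes, Ccnd1 (cyclin D1) had one 172 kb upstream and Gadd45g regions 180 and 268 kb from its start. The one costimulatory receptor gene was Cd226, with a region 70.8 kb upstream in an intron of Rttn. The 22 cytotoxic effector genes, 0.0991% of protein-coding gene names, were nearest to 0 of 302 unmarked far regions and 1 marked far region. A count of 0 of 302 allows a share of up to 0.993%, again at 3 counts. That limit lies above their share of gene names, so the count does not show an absence.

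**Figure D5:**
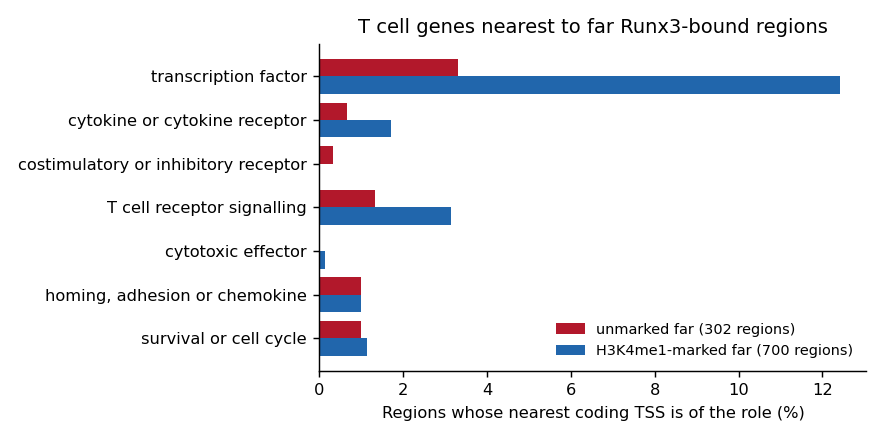
Share of regions in percent (x axis) whose nearest protein-coding gene start belongs to each of 7 roles of T cell genes (y axis), for unmarked far (red) and marked far regions (blue). Transcription factors are the largest role in both, with 10 of 302 and 87 of 700 regions.

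The 95 coding genes with such a region in their body had a median length of 275 kb, against 209 kb for the 154 around marked far regions. At least 500 kb long were 18 of the 95 and 22 of the 154. Nrxn3, a neuronal adhesion gene of 1612 kb, held 3 unmarked and 0 marked far regions, 947 to 1251 kb from the mark. Lef1 held 3 in its introns, 8.61 to 17.1 kb from the mark, and by its start Hadh was the nearest coding gene of these 3, so they do not count in the list above. Gm20388, a gene model of 4435 kb, held 4 of each class. Dclk2, Sox6, Gphn, Prkg1 and Uvrag held 2 each, and the 2 in Prkg1, which encodes a cGMP-dependent kinase, lay 54 and 60 bp from the mark. The gaps were 43.2 and 238 kb in Sox6, 213 and 360 kb in Gphn and 376 and 417 kb in Dclk2.

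Most unmarked far regions lay more than 50 kb from the next unmarked far region. The nearest Runx3-bound region of any class lay a median of 64.9 kb away, with the first quartile at 17.9 kb. Joined where the next centre lay within 50 kb, with other classes not counted, unmarked far regions formed 257 single regions, 18 pairs and 3 groups of 3. The groups were the Lef1 introns, an interval upstream of Tab2, an adaptor of TAK1 kinase signalling (159 to 220 kb), and one upstream of Cpsf6, an RNA cleavage factor (58.1 to 75.4 kb). The nearest coding genes numbered 262, of which 84 were also among the 407 nearest to marked far regions, 32.1% of the first and 20.6% of the second, and 103 unmarked far regions had such a shared gene. Btg1, an antiproliferative gene, was nearest to 3 unmarked and 7 marked far regions.

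At the edge of the rule, the 3 regions just inside the distance limit lay 50.1 kb from Stim1, 50.4 kb from Atp12a and 50.6 kb from Trmt11, and the 3 unmarked regions just outside lay 49.9 kb from a TSS near Gm4798, Spp2 and a SNORA17 gene. The 3 regions nearest to the mark, near Inpp4b, Tgfbr2 and Diap3, lay 8, 18 and 24 bp from it, and the marked far regions with the smallest overlap shared 3, 10 and 15 bp near Igf1r, Tomm20 and Nfatc2.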

How the data were processed

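ChIP-seq of IL-2-activated CD8-TC was analysed from 2 deposited peak lists, for Runx3 and H3K4me1. The authors used ELAND to align reads to mouse mm9, discarded reads without a unique place, pooled the repeats, scaled the larger read set to the smaller and called peaks with MACS version 1.4 against joined NIS reads. The deposited values are start and end positions in bp, with 0 score columns, so binding strength and the spread between repeats could not be measured. The labels leave unclear if 1 or 2 libraries underlie the H3K4me1 list.

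Sequence was NCBIM37 (mm9) and annotation GENCODE vM1, autosomes and X, with 86803 transcript starts and 22350 protein-coding genes. Coordinates count from 1. The nearest gene was the one with the nearest protein-coding gene start. Motifs were searched on both strands in the central 200 bp, with overlap allowed, and flanks were windows of the same length 1000 bp away. Uniqueness was the share of 32-base words found once in the genome, which approximates alignment. No repeat annotation was used. Shares have 95% Wilson intervals, differences Newcombe intervals at 95% and, by Bonferroni over 16 differences, 99.7%. No p-value was computed, since regions are not replicates. Of 351 listed T cell symbols, 348 were annotated.

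The regions and the gene list were chosen with earlier results of these data known. Named were the 5 widest, 5 farthest and 5 most RUNX-rich regions, those nearest listed genes, groups of 3 or more, regions at the limits of the rule and coding genes holding 2 or more. One gene named by this rule is not reported here. Genes named beside the printed CTCF and GGATGTGG sites, exonic regions, regions with few unique words and Btg1 were chosen after their values were seen. Of the printed RUNX-rich regions, the fifth was left out for length. Functions were tested on simulated data. Software was Python 3.11.15 with numba 0.67.0, matplotlib 3.10.9, SciPy 1.17.1, pandas 2.3.3 and NumPy 2.4.6. Alternatives varied the definition of marked, the distance limit, the starts used, chromosomes, dependence among neighbours, uniqueness, window and GC content, and 7 more values were added after seeing the data.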

Additional observations from a re-analysis of the deposited data

How the results depend on the processing

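The 16 differences were recomputed under alternatives that gave 143 values. Of these, 126 left the call as it was, either called under both settings in the same direction or called under neither. Among differences not called under either setting, 16 values had the other sign. None of the called differences reversed. The RUNX motif difference between unmarked and marked far regions ran from -2.76 to 4.74 percentage points and was not called under any alternative, and the Runx3 neighbour difference ran from -29.7 to -10.4 and the narrow region difference from 12.0 to 25.6, called under each.

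The setting of 1 region per group kept a region only where it came first by position among Runx3-bound regions of any class joined within 50 kb. It left 219 unmarked and 375 marked far regions. The ETS difference became called with protein-coding gene starts only (-6.84), 1 region per group (-13.1) and the whole region (-9.36). It also became called, chosen after seeing the data, among regions narrower than the median width (-12.7). The ETS-RUNX difference became called with 1 region per group (-13.0) and the whole region (-12.8). Whole regions were narrower in the unmarked class, so less sequence was searched in them. The part this had in both whole-region calls was not tested. The CTCF difference was no longer called with the centre in a marked region (1.43), at 100 kb in place of 50 kb (0), with 1 region per group (1.83), in the central 100 bp (1.66), within 3 strata of GC content (2.10) and, added later, with 1 mismatch allowed (3.06). With protein-coding starts only, the X chromosome difference (1.75) and that of H3K4me1 within 10 kb (-10.5) became called. At 100 kb, low uniqueness (3.90) and the T cell gene difference (-9.85) were no longer called, nor was the latter with 1 region per nearest gene (-6.26), chosen after seeing the data. At 100 kb 116 unmarked and 259 marked regions were left. The cause was not tested for the other settings.

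No paired analysis was possible because each peak list was called on the joined reads of its libraries, and for the same reason leaving out a replicate was not run. Read depth, which limits how many regions and marks are called, was not analysed here.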

Other observations

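The strand of neighbouring RUNX motifs was looked at after the other values were seen and was not tested. Among the 93 unmarked far regions with RUNX motifs at most 50 bp apart, 55 held neighbouring motifs on the same strand only, 59.1% (49.0% to 68.6%, 95% Wilson interval), 24 on opposite strands only and 14 both. Among 174 marked far regions it was 85, 48.9% (41.5% to 56.2%), and among 367 unmarked regions 5 to 50 kb from a TSS 211, 57.5% (52.4% to 62.4%). The intervals of unmarked and marked far regions overlap. Of single neighbouring pairs, 95 of 139 were on the same strand in unmarked far regions, 68.3%, and 114 of 212 in marked far regions, 53.8%. Pairs of 1 region share its sequence, and tandem repeats hold several. With at least 90% unique words the shares of pairs were 67.2% and 53.7%. The median gap between such motifs was 18 bp in unmarked and 19 bp in marked far regions.

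The word TGTGGGTT holds a RUNX motif with its last letter changed. The word GTGGGTTT overlaps it and lacks the first letter, so both can count the same sites. GTGGGTTT and TGTGGGTT were in 6.62% and 7.62% of the central windows of unmarked far regions. In those of marked far regions they were in 3.14% and 3.14%. In flanking windows of unmarked far regions they were in 0.662% and 0.993%. They were picked from the list of frequent words and were not tested.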
